A study of Mus musculus with 6 samples.

Results

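The cartilage genes are 34 mouse genes of 53801 in the files, chosen by name for what they encode. They are regulators of chondrocytes, the collagens of cartilage, and other proteins and enzymes of its matrix. The choice was made with earlier results of these data known, so shares of called genes below are not from a blind list. Each of the 34 symbols was found once in GENCODE M21, which annotates the mouse build mm10 (GRCm38). The study asked what raised Dlx2, a homeobox transcription factor of the first branchial arch, does to gene expression in the embryonic maxilla. RNA of dissected maxillary prominences at embryonic day 12.5 (E12.5) was sequenced in 3 wild-type samples (WT) and 3 samples of Wnt1cre; Rosa26Dlx2/- embryos (Dlx2OE), all of strain C57BL/6. In Dlx2OE embryos, Cre under the Wnt1 driver removes a stop cassette from 1 copy of Rosa26CAG-LSL-Dlx2-3xFlag, so that the CAG promoter drives Flag-tagged Dlx2 in the neural crest lineage, which forms the mesenchyme but not the epithelium, endothelium or blood of the prominence. The WT embryos are labelled wild type and no sample is labelled as carrying Cre alone, so the effects of Cre and of raised Dlx2 cannot be told apart. The RNA came from 6 littermates by the methods and from 7 by the labels. Whether any sample holds more than 1 embryo is not stated, and the p-values measure the spread among these samples.

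Cartilage forms when mesenchymal cells condense and turn on Sox9, which with Sox5 and Sox6 drives the genes of the cartilage matrix. That matrix is a net of thin fibrils of collagen II, with collagen XI at their core and collagen IX on their surface, and the net holds aggrecan bound to hyaluronan by link protein. Most bones of the upper jaw form directly from mesenchyme, without a cartilage model, and the cartilages near the maxillary prominence belong to the nasal capsule and the skull base. In a bulk sample, fewer cells of a type and less RNA per cell cannot be told apart.

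Between 26155500 and 31308813 reads or read pairs were counted on genes per sample, so that 3 counts, taken as the floor, are 0.0955 to 0.111 CPM, the counts scaled to a common library size. All levels are CPM after TMM scaling, which corrects each library for its composition. Dlx2 itself had a mean ± SD of 41.0 ± 5.32 CPM in WT against 124 ± 5.96 CPM in Dlx2OE (n = 3 each), and was higher in every Dlx2OE sample than in every WT sample. The library of Dlx2OE sample 3 stood apart, with 14.7% of its reads outside annotated genes. This share was 5.75% and 7.81% in the other Dlx2OE samples and 5.03% to 5.43% in WT, so it separated the genotypes. So did the share of counts on mitochondrially encoded genes, at 3.68% to 5.10% in WT and 3.05% to 3.40% in Dlx2OE. The share on haemoglobin genes did too, at 0.333% to 0.403% in WT and 0.201% to 0.258% in Dlx2OE. Reads without a unique position were 5.25% to 6.24% in WT and 4.60% to 4.85% in Dlx2OE, also without overlap. The part of these shares in the results was not tested.

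Of the 34 cartilage genes, 27 had enough counts for edgeR's quasi-likelihood test. At an adjusted p under 0.05, after Benjamini-Hochberg adjustment over all 17514 genes tested, 3 of the 27 fell in Dlx2OE (Col9a2, Col9a3 and Prg4) and 2 rose (Trps1 and Pth1r), while 22 were not called. That is 11.1% lower, against 3.46% of all genes tested, and 7.41% higher, against 2.99%. The calls were few, but most of the set had a negative log2 fold change: 21 of the 27 were below 0 and 6 above, with a median of -0.62, where the median of all genes tested was 0.0028. All WT samples lay above all Dlx2OE samples in 12 of the 27 genes (44.4%), against 17.3% of all genes tested. All WT samples lay below all Dlx2OE samples in 2 of the 27, which are Trps1 and Pth1r, against 16.7% of all genes tested. The filter on low counts can be passed through 1 genotype alone, so these counts describe the 27 genes tested and not the 34.

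**Figure D1:**
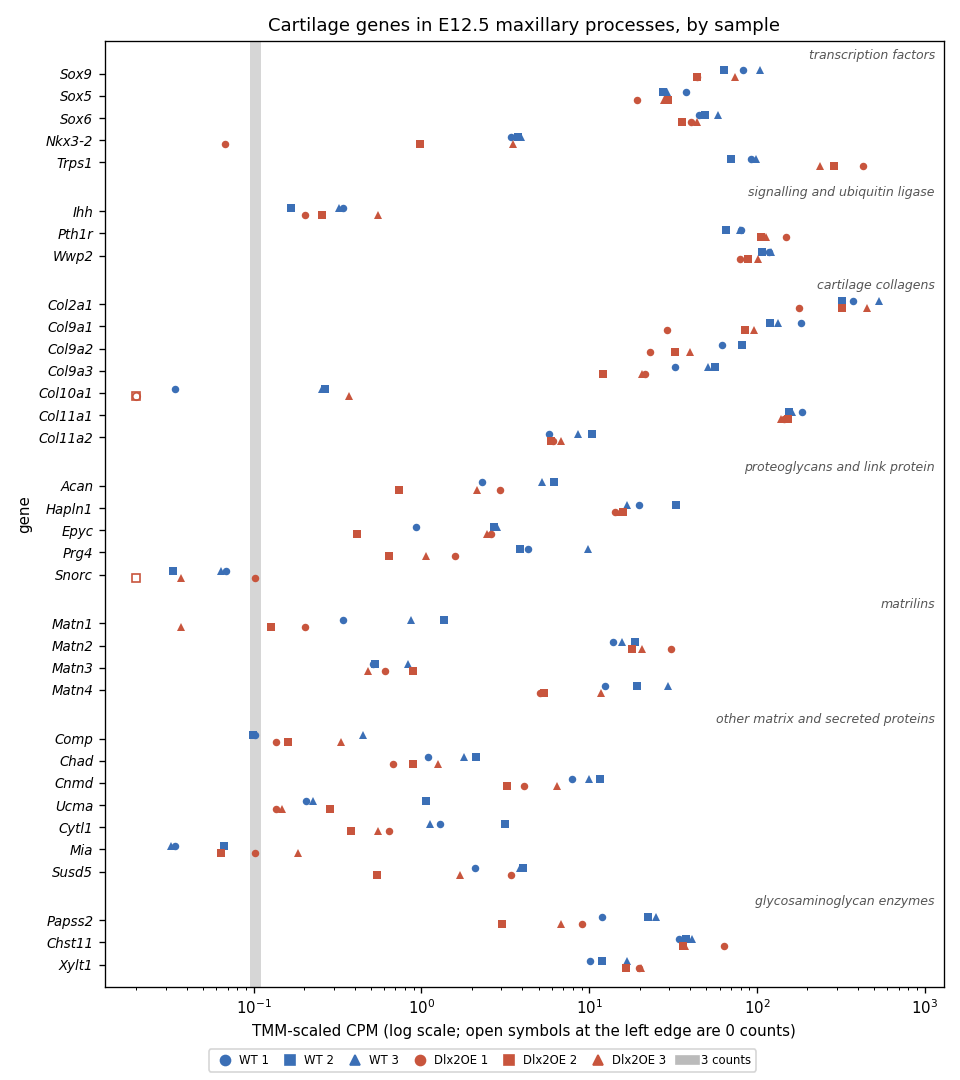
Level of each of the 34 cartilage genes in each of the 6 samples, as TMM-scaled CPM on a log axis, grouped by role, with WT in blue and Dlx2OE in red; the grey band is the level of 3 counts, and open symbols at the left edge mark 0 counts. Red symbols lie left of all blue symbols for 12 tested genes, among them the collagen IX genes, and right of all blue symbols for Trps1 and Pth1r.

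With the study's additional limit of a log2 fold change beyond 1, the 3 lower genes stayed and Trps1 alone was called higher, against 1.62% of all genes tested called lower and 1.5% called higher by this rule. DESeq2's Wald test, the tool of the study's methods, gave an adjusted p to 31 of the 34 genes and called 9 lower and 2 higher, against 7.11% of all its genes called lower and 5.46% called higher. Its 6 further calls were Sox9, Matn4, Cnmd, Papss2, Matn1 and Cytl1, all lower. Calls depended on single libraries, since without WT sample 2 none of the 5 genes passed edgeR's test, and without Dlx2OE sample 2 only Trps1 passed. The number called lower was 5 without Dlx2OE sample 1 and 0 without WT sample 2 or Dlx2OE sample 2. Calls over all genes moved the same way, so this is not particular to the cartilage genes. Over all genes, 606 lower and 524 higher became 40 and 39 without WT sample 2 and 72 and 141 without Dlx2OE sample 2. They became 969 and 975 without Dlx2OE sample 1. The median log2 fold change stayed negative with any 1 sample left out, from -0.73 without Dlx2OE sample 3 to -0.40 without Dlx2OE sample 2. Each of these fits applied the filter on low counts anew, so its median covers 27 to 30 genes and not always the same ones.

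**Figure D2:**
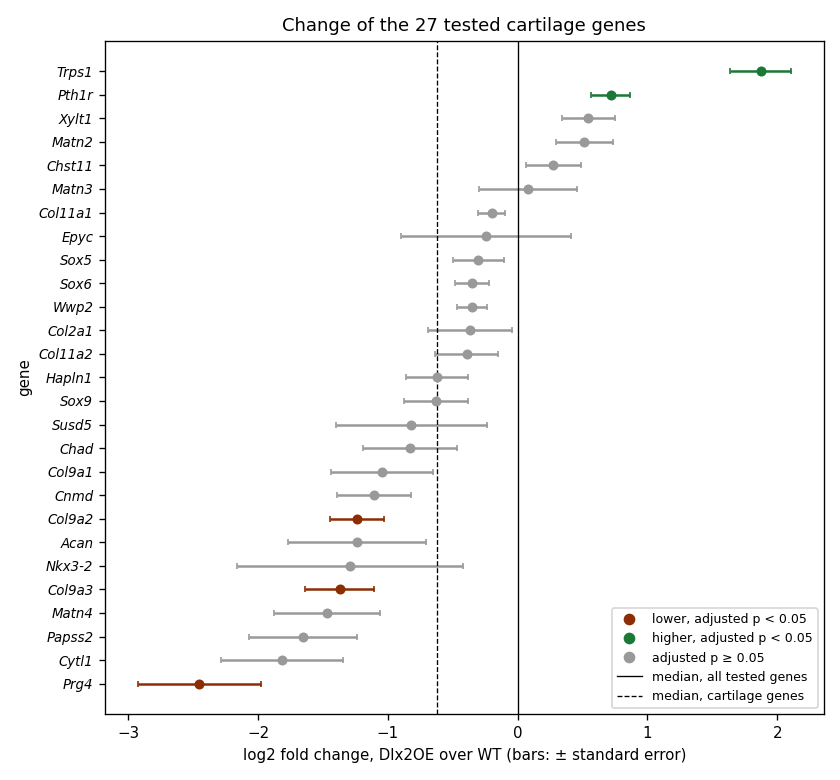
Log2 fold change of Dlx2OE over WT for the 27 tested cartilage genes, with bars of ± 1 standard error from edgeR; red and green points passed an adjusted p of 0.05 and grey points did not. The genes run from Prg4 at -2.45 to Trps1 at 1.87, and the dashed line of their median at -0.62 lies left of the solid line for all genes tested.

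Collagen IX is a heterotrimer of 3 different chains, encoded by Col9a1, Col9a2 and Col9a3, and all 3 genes were lower in every Dlx2OE sample than in any WT sample. Col9a2 (ENSMUSG00000028626, chromosome 4, 121039385 to 121055322, forward strand) was at 61.6, 81.3 and 81.3 CPM in WT samples 1 to 3 and at 22.9, 32.4 and 40.0 CPM in Dlx2OE samples 1 to 3. The lowest WT sample was above the highest Dlx2OE sample. It fell 2.35-fold, a log2 fold change of -1.24 (standard error 0.206, edgeR adjusted p = 0.0203). The exact two-sided permutation test of this gene gave p = 0.1, the smallest that 3 samples against 3 allow.

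Col9a3 (chromosome 2, 180597790 to 180622189, forward strand) was at 32.6, 56.6 and 51.2 CPM in WT and at 21.5, 12.1 and 20.7 CPM in Dlx2OE. The gap between the genotypes was narrower in CPM than for Col9a2, and the level of the gene was lower. WT sample 1 was well under the other WT samples, and it was the lowest for Col9a2 too. Its log2 fold change of -1.37 (standard error 0.268, edgeR adjusted p = 0.0305) was close to that of Col9a2, and 6.07% of its exon sequence overlaps the antisense gene Tcfl5. Col9a1 (ENSMUSG00000026147, chromosome 1, 24177610 to 24252684, forward strand) was at 183, 119 and 133 CPM in WT and at 29.3, 85.2 and 96.6 CPM in Dlx2OE. Dlx2OE sample 1 was far under the other Dlx2OE samples, and the log2 fold change of -1.05 did not pass the test (standard error 0.391, edgeR adjusted p = 0.128). Summed over the 3 genes, the level was 257 to 277 CPM in WT and 73.7 to 157 CPM in Dlx2OE. Col9a2 kept an adjusted p under 0.05 in 4 of 6 fits with 1 sample left out and was not called without WT sample 2 (0.0918) or Dlx2OE sample 2 (0.0678). Col9a3 kept it in 3 of 6, with the largest value, 0.129, without WT sample 2, and was not called without Dlx2OE sample 2 (0.0694) or Dlx2OE sample 3 (0.0625).

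The sequences just before the annotated starts of Col9a1 and Col9a2 are shown as the start regions of the collagen IX genes that lay apart between the genotypes, with that of Pth1r as a gene that went the other way. They come from RefSeq (GRCm38.p6), and the letters searched were ACAAT or ACAAAG, which HMG-box factors of the SOX family can bind, on both strands. Capitals mark a match. Only bases before the start in both annotations are printed, and the Col9a2 stretch is short because GENCODE places that start upstream of RefSeq's. The Col9a1 stretch is chr1:24177360-24177609 on the forward strand, that of Col9a2 is chr4:121039316-121039384 on the forward strand, and that of Pth1r is chr9:110747146-110747395 on the reverse strand, each written 5′ to 3′.
Col9a1: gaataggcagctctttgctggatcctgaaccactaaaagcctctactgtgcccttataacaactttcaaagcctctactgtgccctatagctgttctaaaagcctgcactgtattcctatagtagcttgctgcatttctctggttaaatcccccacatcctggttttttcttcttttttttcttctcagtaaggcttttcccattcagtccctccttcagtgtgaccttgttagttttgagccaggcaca
Col9a2: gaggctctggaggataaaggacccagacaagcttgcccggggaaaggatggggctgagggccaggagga
Pth1r: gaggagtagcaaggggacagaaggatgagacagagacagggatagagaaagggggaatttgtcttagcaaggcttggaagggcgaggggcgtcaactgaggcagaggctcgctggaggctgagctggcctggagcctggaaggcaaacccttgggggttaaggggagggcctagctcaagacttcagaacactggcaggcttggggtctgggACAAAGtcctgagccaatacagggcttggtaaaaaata
Col9a3 is named only. The Pth1r stretch holds ACAAAG once, and those of Col9a1 and Col9a2 hold neither form. In the RefSeq windows of 300 bases around gene starts, 8 of the 25 cartilage genes with a window (32.0%) held ACAAT or ACAAAG, against 43.3% of 27025 promoters. Of the 5 called genes, Col9a2 and Pth1r are among the 25, and Col9a3, Prg4 and Trps1 are not. The letters TAATTA, a core that homeodomain proteins of the DLX kind can bind, were in 4 of the 25 windows (16.0%: Col10a1, Col11a2, Hapln1 and Pth1r), against 5.32% of all promoters. The TAATTA match of Pth1r is not within the stretch printed above, which is only part of its window. A match describes the letters only, and binding was not measured.

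**Figure D3:**
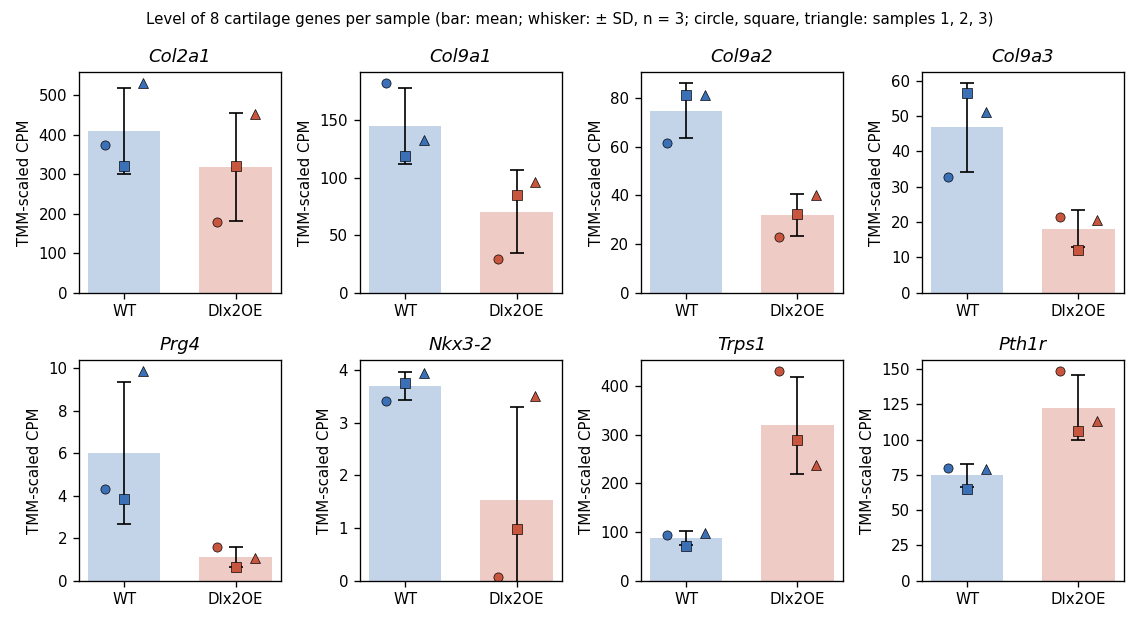
TMM-scaled CPM of 8 cartilage genes in each sample (points), with bars at the mean of 3 samples per genotype and whiskers of ± 1 SD; the axes start at 0, where the lower whisker of Nkx3-2 in Dlx2OE is cut off. Col9a1, Col9a2, Col9a3 and Prg4 have no Dlx2OE point as high as a WT point, Trps1 and Pth1r have none as low, and Col2a1 and Nkx3-2 overlap.

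The genes of the fibril-forming collagens were not called, and neither was Col9a1. Of the alternative settings, only edgeR without the filter on low counts called Col9a1 lower (edgeR adjusted p = 0.0271). Col2a1, the gene of collagen II and the main collagen gene of cartilage, was at 375, 320 and 532 CPM in WT and at 179, 322 and 452 CPM in Dlx2OE. Only Dlx2OE sample 1 lay below the range of WT, and the log2 fold change was -0.37 (standard error 0.325, edgeR adjusted p = 0.475). Col11a1 was at 156 to 185 CPM in WT and at 140 to 153 CPM in Dlx2OE. These ranges did not overlap, but they lay close together, and the log2 fold change was -0.20 (standard error 0.103, edgeR adjusted p = 0.231). Col11a2, another chain of collagen XI, was at 5.74 to 10.4 CPM in WT and 5.95 to 6.83 CPM in Dlx2OE, and the genotypes overlapped. Summed over these 3 genes, the level was 487 to 703 CPM in WT and 330 to 599 CPM in Dlx2OE, so the sums of the fibrillar chains overlapped and those of collagen IX did not. With a correction for gene length and GC content, the log2 fold changes were -0.65 for Col2a1, -0.43 for Col11a1 and -0.61 for Col11a2, none called. Those of Col9a1, Col9a2 and Col9a3 were then -1.09, -1.23 and -1.39. Whether the change of collagen IX differs from that of collagen II was not tested. Col10a1, the collagen of hypertrophic chondrocytes, had 1, 8 and 8 counts in WT against 0, 0 and 10 in Dlx2OE and was not tested.

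Per kilobase of exon, Col2a1 had the highest level of the 34 genes in WT, at 44.3 CPM per kilobase, followed by Col9a1 at 28.6, Pth1r at 25.5, Col9a2 at 24.2 and Sox9 at 20.2. Acan, the gene of aggrecan and a defining product of mature cartilage, was at 0.611 CPM per kilobase, so that Col2a1 exceeded it 72.5-fold. Other matrix genes of cartilage were well above the floor, with WT means of 23.2 CPM for Hapln1, 20.5 CPM for Matn4 and 9.82 CPM for Cnmd. Some genes of differentiated cartilage had few counts in both genotypes. Snorc had 0 to 3 counts per sample, Mia 1 to 5, Comp 3 to 14 and Ihh 5 to 15.

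The transcription factors of chondrocytes did not pass the test, with the exception of Trps1. Sox9, the master regulator of chondrocytes, was at 82.9, 63.6 and 104 CPM in WT and at 44.1, 43.9 and 74.1 CPM in Dlx2OE. Dlx2OE sample 3 lay above WT sample 2, so the genotypes overlapped. Its log2 fold change was -0.63 (standard error 0.246, edgeR adjusted p = 0.139, DESeq2 adjusted p = 0.0478), so the call depended on the tool. Sox6, a partner of Sox9, was at 45.2, 49.2 and 58.6 CPM in WT and at 40.3, 35.9 and 43.8 CPM in Dlx2OE, without overlap, at a log2 fold change of -0.35 (edgeR adjusted p = 0.122). Sox5, the other partner, had -0.30 with overlap (edgeR adjusted p = 0.328), and 9.25% of its exon sequence overlaps the antisense gene Sox5os1.

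Nkx3-2, a repressor that favours chondrocytes and is known from the jaw joint, varied more among Dlx2OE samples than any other tested cartilage gene. The counts were 100, 113 and 123 for WT against 2, 31 and 95 for Dlx2OE, which is 3.42, 3.75 and 3.94 CPM against 0.0675, 0.987 and 3.51 CPM. Dlx2OE sample 3 lay within the range of WT and Dlx2OE sample 1 was under the floor. Its coefficient of variation, the SD over the mean, was 7.21% in WT and 117% in Dlx2OE, and the log2 fold change of -1.29 did not pass the test (standard error 0.870, edgeR adjusted p = 0.347).

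Trps1 (ENSMUSG00000038679, chromosome 15, 50654752 to 50890463, reverse strand) encodes a GATA-type zinc finger repressor that acts in chondrocytes and in the mesenchyme of joints and hair follicles. It was at 92.8, 70.0 and 98.5 CPM in WT and at 431, 288 and 237 CPM in Dlx2OE. All Dlx2OE samples lay above all WT samples, with the highest of them at sample 1. Trps1 rose 3.66-fold, a log2 fold change of 1.87 (standard error 0.235, edgeR adjusted p = 0.0101), the largest rise of the 27 tested genes. It kept an adjusted p under 0.05 in 5 of 6 fits with 1 sample left out and missed it without WT sample 2 (0.0625).

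Among the signalling genes, Pth1r (ENSMUSG00000032492, chromosome 9, 110722085 to 110747145, reverse strand), the receptor through which parathyroid hormone-related protein holds back hypertrophy, was at 80.0, 65.2 and 78.9 CPM in WT and at 149, 106 and 113 CPM in Dlx2OE. The genotypes did not overlap. Pth1r rose 1.64-fold, a log2 fold change of 0.72 (standard error 0.150, edgeR adjusted p = 0.0356), under the study's limit of 1. It kept its call in 2 of 6 fits with 1 sample left out, and the adjusted p was 0.0949 without WT sample 1, 0.149 without WT sample 2, 0.0659 without Dlx2OE sample 2 and 0.0727 without Dlx2OE sample 3. Ihh, the hedgehog ligand of the same circuit in growth plates, had 10, 5 and 10 counts in WT against 6, 8 and 15 in Dlx2OE, which is too few for the test. Wwp2, a ubiquitin ligase and the host gene of the cartilage microRNA Mir140, was at 107 to 121 CPM in WT and at 79.7 to 102 CPM in Dlx2OE. Its levels did not overlap, at a log2 fold change of -0.35 (standard error 0.115, edgeR adjusted p = 0.0944).

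The proteoglycan genes were at low levels. Prg4 (ENSMUSG00000006014, chromosome 1, 150449412 to 150466165, reverse strand), the gene of lubricin, which coats joint surfaces, was at 4.31, 3.85 and 9.88 CPM in WT and at 1.59, 0.637 and 1.07 CPM in Dlx2OE. WT sample 3 was the highest by far, and all WT samples were above all Dlx2OE samples. Prg4 fell 5.47-fold, a log2 fold change of -2.45 (standard error 0.475, edgeR adjusted p = 0.0298), the largest fall of the 27 tested genes, and 4.77% of its exon sequence overlaps the antisense gene Tpr. It kept its call in 2 of 6 fits with 1 sample left out and lost it without WT sample 1 (0.0664), WT sample 2 (0.0816), Dlx2OE sample 2 (0.0897) or Dlx2OE sample 3 (0.0824).

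Acan was at 2.29, 6.17 and 5.23 CPM in WT and at 2.94, 0.732 and 2.14 CPM in Dlx2OE. WT sample 1 lay within the range of Dlx2OE, and the log2 fold change of -1.24 did not pass the test (standard error 0.531, edgeR adjusted p = 0.165). Hapln1, the link protein that ties aggrecan to hyaluronan, was at 19.9, 32.9 and 16.9 CPM in WT and at 14.2, 15.8 and 15.3 CPM in Dlx2OE. Its levels did not overlap, at a log2 fold change of -0.62 (edgeR adjusted p = 0.136). Epyc, a small leucine-rich proteoglycan, had a log2 fold change of -0.24 (edgeR adjusted p = 0.822), and 40.6% of its exon sequence overlaps an antisense gene, so its reads are uncertain.

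Matrilins are adaptor proteins that link fibrils to proteoglycans, and the 4 genes did not go one way. Matn4 was at 12.5, 19.2 and 29.7 CPM in WT and at 5.06, 5.38 and 11.8 CPM in Dlx2OE, with Dlx2OE sample 3 just under WT sample 1. Its log2 fold change was -1.47 (standard error 0.409, edgeR adjusted p = 0.0677, DESeq2 adjusted p = 0.00052). Matn1, the cartilage matrix protein, had 10, 41 and 27 counts in WT against 6, 4 and 1 in Dlx2OE and was removed by the filter on low counts. DESeq2, without that filter, gave it an adjusted p of 0.0159. Matn2 had a log2 fold change of 0.51 (edgeR adjusted p = 0.162) and Matn3 one of 0.080 (edgeR adjusted p = 0.899), both with overlap.

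Of the other secreted proteins, Cnmd, the gene of the angiogenesis inhibitor chondromodulin, was at 7.93, 11.5 and 9.97 CPM in WT and at 4.08, 3.22 and 6.39 CPM in Dlx2OE. The genotypes did not overlap and the gene missed the threshold, its log2 fold change being -1.11 (standard error 0.285, edgeR adjusted p = 0.0576, DESeq2 adjusted p = 0.00177). Cytl1, a secreted cytokine-like protein of chondrocytes, was at 1.30, 3.15 and 1.12 CPM in WT and at 0.641, 0.382 and 0.554 CPM in Dlx2OE. It also had no overlap and missed the threshold, with -1.82 (standard error 0.471, edgeR adjusted p = 0.0580, DESeq2 adjusted p = 0.0132). Chad, a leucine-rich protein that binds chondrocytes, had -0.83 (edgeR adjusted p = 0.171) and Susd5, which has sushi domains, had -0.82 (edgeR adjusted p = 0.370), both with overlap. Ucma, a matrix protein of young chondrocytes, had 6, 32 and 7 counts in WT against 4, 9 and 4 in Dlx2OE and was not tested. Comp, which binds collagen fibrils, Snorc, a small membrane proteoglycan, and Mia, a secreted SH3-domain protein, were under the filter too, and 41.2% of the exon sequence of Mia overlaps another gene on the same strand.

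The 3 enzyme genes did not go one way. Papss2, which makes the sulfate donor for cartilage proteoglycans, was at 12.0, 22.6 and 24.9 CPM in WT and at 9.08, 3.03 and 6.83 CPM in Dlx2OE. Its genotypes did not overlap and its log2 fold change was -1.65 (standard error 0.416, edgeR adjusted p = 0.0556, DESeq2 adjusted p = 0.000116). Chst11, a chondroitin sulfotransferase, had 0.28 (edgeR adjusted p = 0.414), with Dlx2OE sample 1 at 63.2 CPM and all other samples at 34.3 to 41.1 CPM. Xylt1, which starts glycosaminoglycan chains, was at 10.1, 11.9 and 16.8 CPM in WT and at 19.8, 16.6 and 20.3 CPM in Dlx2OE, and its log2 fold change was 0.54 (edgeR adjusted p = 0.130).

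Summed over the 34 genes, the levels of the genotypes overlapped. The sum was 1311 to 1645 CPM in WT and 1308 to 1489 CPM in Dlx2OE. Without Col2a1 it was 991 to 1113 CPM in WT and 987 to 1148 CPM in Dlx2OE. Both sums include Trps1, at 70.0 to 98.5 CPM in WT and 237 to 431 CPM in Dlx2OE, whose rise offsets falls of other genes. The overlap of the sums therefore does not show that the other genes were alike in the genotypes. Within a genotype, no sample was highest or lowest throughout. WT sample 1 had the lowest WT level in 16 of the 27 tested genes and WT sample 3 the highest in 14, while Dlx2OE sample 2 had the lowest Dlx2OE level in 15 and Dlx2OE sample 3 the highest in 12. Dlx2OE sample 1 was the highest in 11 and the lowest in 9, and WT sample 2 was the highest in 9 and the lowest in 9. The median coefficient of variation over the 27 genes was 26.6% in WT and 31.5% in Dlx2OE.

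Of 58 other regulators and signals of chondrogenesis, 57 were tested, of which 3 fell and 5 rose, with a median log2 fold change of 0.064. That is 5.26% lower and 8.77% higher, beside 3.46% and 2.99% of all genes tested. Tgfb2 fell from 94.3 ± 13.4 to 61.9 ± 3.54 CPM (edgeR adjusted p = 0.0309), and Ccn2, a matricellular growth factor modulator, fell with it. Grem1, a secreted BMP antagonist, was at 4.31, 6.34 and 5.00 CPM in WT and at 13.4, 12.0 and 13.3 CPM in Dlx2OE. It rose by 1.31 on the log2 scale (standard error 0.193, edgeR adjusted p = 0.0145), and all Dlx2OE samples lay above all WT samples. Gli2 and Gli3, the transcription factors of hedgehog signalling, rose from 76.1 ± 8.91 to 124 ± 16.0 CPM (log2 fold change 0.71, edgeR adjusted p = 0.0264) and from 123 ± 17.4 to 187 ± 12.9 CPM (0.60, adjusted p = 0.0356). The other calls were Tgfb3, lower, and Sox11 and Hdac4, higher. Hdac4, a corepressor that restrains hypertrophy, has 22.4% of its exon sequence under an antisense gene.

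Of 55 enzymes that build glycosaminoglycans or process collagen, 54 were tested, of which 4 fell and 1 rose, with a median log2 fold change of -0.098. That is 7.41% lower and 1.85% higher, beside 3.46% and 2.99% of all genes tested. P3h4, a partner of the collagen prolyl and lysyl hydroxylases, was at 61.8, 60.6 and 57.3 CPM in WT and at 38.7, 35.8 and 39.1 CPM in Dlx2OE, a log2 fold change of -0.66 (standard error 0.0901, edgeR adjusted p = 0.0116). Plod2, a lysyl hydroxylase, fell from 142 ± 12.0 to 86.9 ± 6.02 CPM (-0.71, edgeR adjusted p = 0.0140). Loxl1, a lysyl oxidase of elastic and collagen fibres, fell from 36.6 ± 4.85 to 16.9 ± 4.17 CPM (-1.12, edgeR adjusted p = 0.0221), and P4ha3, a prolyl hydroxylase subunit, fell by 0.66 on the log2 scale. Chst15, a sulfotransferase of chondroitin sulfate, rose by 0.93 on the log2 scale (edgeR adjusted p = 0.0434). Csgalnact1, which starts chondroitin sulfate chains, was at 6.12, 6.54 and 6.86 CPM in WT and at 3.07, 3.09 and 4.47 CPM in Dlx2OE, and its call depended on the tool (edgeR adjusted p = 0.0562, DESeq2 adjusted p = 0.00775).

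Of 37 other matrix genes of cartilage and its surroundings, 35 were tested, of which 4 fell and 1 rose, with a median log2 fold change of -0.087. That is 11.4% lower and 2.86% higher, beside 3.46% and 2.99% of all genes tested. Mgp, an inhibitor of calcification in cartilage and vessels, was at 12.7, 19.6 and 13.1 CPM in WT and at 3.75, 2.20 and 2.10 CPM in Dlx2OE. It fell by 2.49 on the log2 scale (standard error 0.296, edgeR adjusted p = 0.00929) and kept its call with any 1 sample left out, as did Fibin, a secreted protein that fell from 56.6 ± 9.17 to 20.4 ± 2.29 CPM (edgeR adjusted p = 0.00507). Cilp, a cartilage intermediate layer protein, was at 3.01 ± 0.339 CPM in WT and 0.814 ± 0.0964 CPM in Dlx2OE (edgeR adjusted p = 0.0116). Ogn, a small leucine-rich proteoglycan of connective tissue, fell from 162 ± 21.3 to 75.2 ± 24.0 CPM (edgeR adjusted p = 0.0309), and Thbs1, a matricellular protein, rose from 117 ± 20.3 to 218 ± 35.3 CPM (edgeR adjusted p = 0.0264). Many calls of these 3 lists depended on single libraries as well, those of Mgp and Fibin excepted. Without WT sample 2, 1 regulator, 0 enzymes and 2 other matrix genes were called, beside 40 lower and 39 higher over all genes. Without Dlx2OE sample 2, 2 regulators, 1 enzyme and 3 other matrix genes were called, beside 72 lower and 141 higher over all genes.

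Markers of other cells moved between the genotypes beside the collagen IX genes. Of 3 tendon markers, 2 fell (Scx and Mkx), and the summed level was 64.7 to 72.8 CPM in WT and 30.2 to 36.3 CPM in Dlx2OE, without overlap. The other one, Tnmd, went the opposite way, at 0.957, 1.96 and 1.35 CPM in WT and at 9.11, 1.91 and 2.95 CPM in Dlx2OE, and its log2 fold change was 1.71 (edgeR adjusted p = 0.105, DESeq2 adjusted p = 0.0123). Of 7 macrophage markers, 3 fell (sum 67.6 to 75.6 against 39.0 to 50.9 CPM), and of 9 erythroid markers, 3 fell (3274 to 4350 against 1960 to 2537 CPM). Over all genes tested, 3.46% were called lower and 2.99% higher, and 17.3% were lower in Dlx2OE without overlap. Of 10 markers of maxillary mesenchyme, 1 fell (Pax9) and 1 rose (Twist1). The sums of this list were 1804 to 2148 CPM in WT and 2128 to 2666 CPM in Dlx2OE, so its genes were expressed in all samples. No such marker list was used to choose the cartilage genes, and the part of these cells in their changes was not tested.

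The remaining lists overlapped between the genotypes in summed level. Neuron markers (0 of 8 called) were at 109 to 383 CPM in WT and 215 to 1625 CPM in Dlx2OE, with Dlx2OE sample 3 the highest. All 8 had a positive log2 fold change, with a median of 1.37. Sox10, which marks glia and other neural crest derivatives and shares targets with Sox9, was at 36.0, 27.1 and 36.3 CPM in WT and at 11.5, 38.3 and 63.5 CPM in Dlx2OE. The list of glia and melanocyte markers (2 of 9 tested called higher, Dct and Pmel) was at 147 to 153 CPM in WT and 106 to 327 CPM in Dlx2OE, and Foxd3 was at 0 counts in all samples. Epithelial markers (2 of 8 called lower, Krt8 and Krt18) were at 632 to 1171 and 516 to 1708 CPM, muscle markers (0 of 6 called, all with a negative log2 fold change, median -0.79) at 150 to 293 and 62.7 to 177 CPM, and endothelial markers (1 of 5 called lower, Emcn, all with a negative log2 fold change, median -0.31) at 253 to 373 and 188 to 292 CPM. Osteoblast markers (0 of 6 tested called) were at 76.1 to 111 and 104 to 151 CPM, and lens and retina markers (0 of 3 tested called) at 18.0 to 45.3 and 11.3 to 25.0 CPM. Beside these counts, 3.46% of all genes tested were called lower and 2.99% higher. The part of these cells in the levels of the cartilage genes was not tested.

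**Figure D4:**
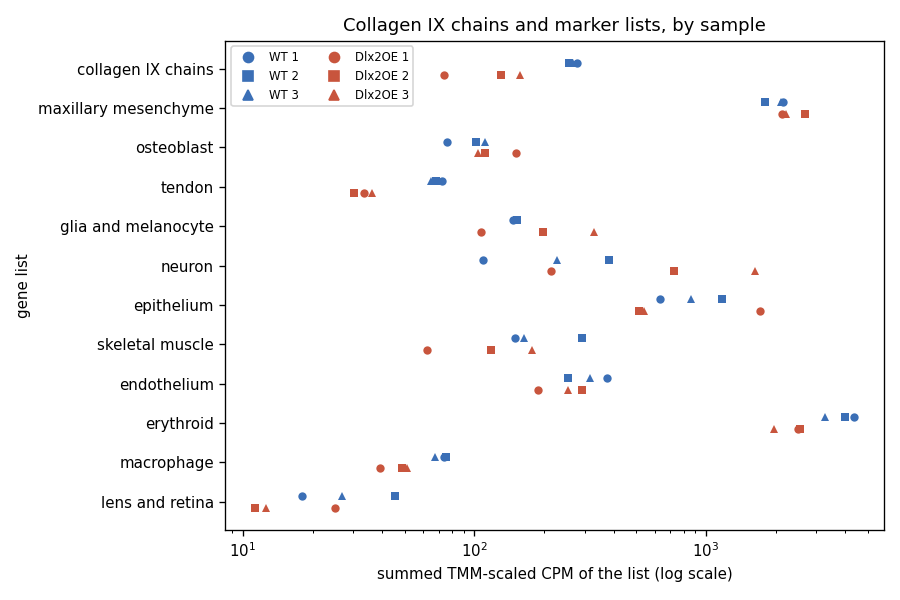
Summed TMM-scaled CPM, on a log axis, of the 3 collagen IX genes and of 11 lists of cell type markers in each sample, with WT in blue and Dlx2OE in red. The collagen IX, tendon, erythroid and macrophage sums of the Dlx2OE samples all lie under those of WT, at 73.7 to 157 CPM against 257 to 277 CPM for collagen IX, while the other lists overlap.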

How the data were processed

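Poly-A RNA of 6 samples was sequenced as 150 bp read pairs from a kit that does not mark strand. The authors removed adaptor, contaminant and low-quality reads, mapped the rest to mm10 with STAR 2.7.3a, counted them per gene with htseq-count (HTSeq 0.12.4, union mode) and deposited raw counts. The annotation and the strand setting are not given in the sources used here, so a gene and an overlapping antisense gene may share reads.

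Genotypes were taken from the labels. Counts were tested in edgeR 4.0.16 (R 4.3.3) with filterByExpr (minimum count 10), TMM scaling, the quasi-likelihood test on genotype alone and Benjamini-Hochberg adjustment over the 17514 genes kept. Positions and exon overlaps are from GENCODE M21, which names 53706 of the 53801 genes, and 95 kept their identifiers. SDs are over CPM, and exact permutation tests used log2(CPM + 0.5). Floors cover counting error only. Replicates differed beyond sampling noise in every pair.

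The members and lists were chosen with earlier results of these data known. Named are all 34 cartilage genes and, per companion list, up to 5 genes of smallest p among those called without overlap. Further genes of these lists and of the marker lists are named outside this rule, after their values were seen. Alternatives were DESeq2 1.42.0, RLE factors, library size alone, other filters, removal of mitochondrial and haemoglobin genes, a length and GC correction (loess span 0.5), a replicate block and leaving out each sample. The scripts were tested on simulated counts. Figures were drawn with matplotlib 3.10.9.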

Additional observations from a re-analysis of the deposited data

How the results depend on the processing

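Of 404 values of the 27 tested cartilage genes under these alternatives, 358 kept their direction and their side of the threshold, 20 lost the call, 21 gained one and 5 turned sign. The sign turned for Matn3 without WT sample 1 (-0.050), WT sample 2 (-0.033) or Dlx2OE sample 2 (-0.20, the lowest of a range up to 0.33), for Epyc without Dlx2OE sample 2 (0.23, the highest of a range from -0.61) and for Chst11 without Dlx2OE sample 1 (-0.044, the lowest of a range up to 0.42). None of the 3 was called under any of these alternatives. RLE factors, removal of mitochondrial and haemoglobin genes and a minimum of 10 counts in every sample kept all 5 calls and added none. Library size alone did so too and moved the median of all genes by 0.070.

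The cartilage genes called lower (3) were 9 with DESeq2, 10 with no filter, 5 with the length and GC correction (which added Sox6 and Wwp2), 1 with that correction and the replicate block, and 0 to 5 with 1 sample left out. Those called higher (2) were 0 with correction and block, 1 with the fold limit and 0 to 3 with 1 sample left out. Their median log2 fold change was -0.51 with DESeq2, over all 34 genes, and -0.73 to -0.40 with 1 sample left out, over 27 to 30 genes. The gene sets thus differ from that of the main median. The regulators called lower (3) were 6 with DESeq2, 1 with library size alone, 5 with no filter, 0 with correction and block, 1 with the fold limit and 0 to 4 with 1 sample left out. Those called higher (5) were 3 with the correction, 0 with correction and block, 1 with the fold limit and 0 to 6 with 1 sample left out. The enzymes called lower (4) were 1 with correction and block, 1 with the fold limit and 0 to 5 with 1 sample left out. The enzyme called higher (1) was lost (0) with the block, the correction, both together and the fold limit, and 0 to 1 were called with 1 sample left out. The other matrix genes called lower (4) were 11 with DESeq2, 9 with no filter, 0 with correction and block and 2 to 7 with 1 sample left out. Those called higher (1) were 2 with DESeq2, 3 with no filter, 0 with correction and block, 0 with the fold limit and 0 to 2 with 1 sample left out. Over all genes, 606 lower and 524 higher became 1367 and 1050 with DESeq2, 1179 and 865 with no filter, 43 and 32 with correction and block, and 284 and 262 with the fold limit. With 1 sample left out they ranged from 40 to 1298 lower and from 39 to 975 higher. Apart from the fewer samples or genes tested, the cause was not tested.

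No pairing by replicate number was visible: same-numbered samples correlated at -0.072, -0.21 and 0.073 in their deviations from the genotype means, across genes. With 3 samples per genotype, these values cannot show that pairing was absent. With the replicate block, 4 cartilage genes were lower and 2 higher, Col9a3 was not called (edgeR adjusted p = 0.0558), and Sox9 (0.0423) and Matn4 (0.0306) were. With correction and block together, where 75 genes in all were called, none of the 5 calls was kept and Matn4 was added. The log2 fold changes were then -1.26 for Col9a2, -1.40 for Col9a3, 1.62 for Trps1, 0.76 for Pth1r and -2.35 for Prg4, at edgeR adjusted p from 0.0526 to 0.0710.

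Depth limits what can be said of the 7 untested cartilage genes. In particular, Snorc, Mia and Col10a1 reached 3, 5 and 10 counts at most, so no difference was detectable there. A cartilage gene that was not called is not shown to be unchanged.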
